A study of Mus musculus with 25 samples.

Results

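The collagen genes of mouse mammary tumours driven by mutant Pik3ca were described across 25 RNA sequencing libraries. Members were all rows whose symbol consists of Col, a number, the letter a and a number, which gave 44 of the 53070 rows of the larger count table, and the same 44 symbols were found in the smaller table. All tumours came from mice of the line LSL-Pik3caH1047R; LSL-Cas9-EGFP, in which Cre switches on the mutant kinase together with Cas9 and the fluorescent protein EGFP. Live GFP-positive cells were sorted after collagenase and trypsin digestion, so the libraries were made from recombined cells and from whatever else passed that gate.

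The first experiment held 6 tumours of Mixed C57BL/6 x FVB/N background that received Adenoviral Krt5-Cre, in which the promoter of the basal keratin gene Krt5 drives Cre. Of these, 3 additionally carried Kdm6a fl/fl, a floxed allele pair of an X-linked histone demethylase gene, and 3 were Kdm6a wildtype. The second experiment held 19 tumours of F1 C57BL/6 x FVB/N mice that received a lentivirus with Cre and 1 guide RNA, against Asxl2, Kdm6a, Kmt2c or Setd2, against Apc or Trp53, or the non-targeting control sgNT. The labels give no age and no promoter for the lentiviral Cre.

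The count columns carry only the running numbers 1 to 25, and these appear in no tumour's own labels. The design text places the numbers 1 to 19 in the guide experiment and 20 to 25 in the Krt5-Cre experiment, and that is the level at which libraries were grouped here. Libraries 23 and 24 stand in a table of their own that only Kdm6a fl/fl samples name, and they were taken as Kdm6a fl/fl. The guide of each of the libraries 1 to 19 was not assigned, and neither was the Kdm6a genotype of the libraries 20, 21, 22 and 25, which hold 3 wildtype tumours and 1 fl/fl tumour. Accordingly, no value is given for any 1 guide, and the 9 labelled groups were not compared with each other.

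Collagens are secreted or membrane-anchored proteins whose chains wind into a triple helix. Fibrillar collagens form the fibres of connective tissue and are made in quantity by fibroblasts. Type IV collagens form the sheet-like network of the basement membrane, on which mammary epithelium rests. Type XVII collagen spans the membrane of basal epithelial cells at hemidesmosomes, and type VII collagen anchors the basement membrane to the tissue beneath it. In the mammary gland, the basal myoepithelial layer contacts the basement membrane, while stromal fibroblasts surround the ducts.

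The results below turn on type I, type IV and type XVII collagen genes, so the promoter windows of 4 of them are shown. Each window runs from 250 bases before to 50 bases after the annotated RefSeq start in the GRCm38.p6 build, and is written along the strand of the gene. The Col1a2 window lies at chr6:4505368-4505667 on the plus strand, and its capitals mark CCAAT and GGGCGG on either strand. The Col4a1 window lies at chr8:11312777-11313076 on the minus strand and the Col4a2 window at chr8:11312555-11312854 on the plus strand. The capitals in both mark the 78 bases that the windows share, read from opposite strands. The Col17a1 window lies at chr19:47691993-47692292 on the minus strand, and its capitals mark TATAAA on either strand.
Col1a2: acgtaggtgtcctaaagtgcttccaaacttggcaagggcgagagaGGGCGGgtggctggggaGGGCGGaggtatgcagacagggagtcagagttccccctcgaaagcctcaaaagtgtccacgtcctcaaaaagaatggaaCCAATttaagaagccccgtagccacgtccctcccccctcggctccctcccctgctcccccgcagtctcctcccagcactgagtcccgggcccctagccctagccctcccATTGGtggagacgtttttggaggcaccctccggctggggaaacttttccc
Col4a1: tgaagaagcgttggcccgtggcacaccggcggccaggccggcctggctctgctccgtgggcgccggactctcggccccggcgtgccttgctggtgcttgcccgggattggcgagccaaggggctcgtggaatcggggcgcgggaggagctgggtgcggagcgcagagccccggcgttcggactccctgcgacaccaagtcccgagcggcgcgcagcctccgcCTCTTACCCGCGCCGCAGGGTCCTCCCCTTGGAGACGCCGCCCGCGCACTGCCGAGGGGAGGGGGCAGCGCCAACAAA
Col4a2: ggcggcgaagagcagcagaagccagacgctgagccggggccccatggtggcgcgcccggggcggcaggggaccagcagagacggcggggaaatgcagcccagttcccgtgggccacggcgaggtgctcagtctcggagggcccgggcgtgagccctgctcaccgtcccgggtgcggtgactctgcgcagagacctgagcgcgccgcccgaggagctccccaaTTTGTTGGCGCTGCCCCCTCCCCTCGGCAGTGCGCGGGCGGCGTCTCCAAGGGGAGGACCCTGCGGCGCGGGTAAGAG
Col17a1: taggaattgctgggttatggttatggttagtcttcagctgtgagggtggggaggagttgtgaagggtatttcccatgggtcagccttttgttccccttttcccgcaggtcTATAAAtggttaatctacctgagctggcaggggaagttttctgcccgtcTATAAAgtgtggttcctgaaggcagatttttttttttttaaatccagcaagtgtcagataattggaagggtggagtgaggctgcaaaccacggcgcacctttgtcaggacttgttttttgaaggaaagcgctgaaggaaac
The start sites of Col4a1 and Col4a2 lie 21 bases apart on opposite strands, and the first bases of the annotated genes overlap. The Col1a2 window held 2 CCAAT and 2 GGGCGG matches. The Col17a1 window held 2 TATAAA matches and no GGGCGG, and its GC content was 46.3%, against 74.0% in the Col4a1 window. RefSeq windows were matched for 35 of the 44 members, in 38 windows. Searched on both strands, CCAAT was found in 13 of these 38 windows, against 37.4% of all 32851 windows in the table. GGGCGG was found in 23 of the 38 windows, against 35.7% of all windows, and TATAAA in 5 of the 38, against 13.6%. A base could count towards more than 1 motif, and a match describes the letters only.

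Library totals ran between 7733478 and 43673097 counts. Of the lentiviral libraries, 6 had at least 34244976 counts, while the other 13 and all adenoviral ones had at most 22544202. Library 13 had counts for only 12757 genes and for 35 of the 44 members, while the other libraries had at least 19491 genes. Libraries 21 and 12 carried the most RNA of immune marker genes, with 8680 and 6076 CPM (counts scaled to a common library total) summed over 6 markers. Across the other adenoviral libraries this sum was 28.5 to 1066 CPM, and across all lentiviral libraries its median was 246 CPM. Epithelial genes were detected in all libraries, but the basal marker sum over 6 genes was lowest in library 21 at 579 CPM among the adenoviral ones and in library 16 at 1187 CPM among the lentiviral ones. Kdm6a, the floxed gene, had 59.9 and 60.2 CPM in the Kdm6a fl/fl libraries 23 and 24, and 110, 138, 118 and 83.7 CPM in libraries 20, 21, 22 and 25. These are counts over the whole gene and include exons outside a deletion. A lower level in such bulk libraries can come from fewer cells of a type or from less RNA per cell, and these cannot be told apart. The closest pair of libraries, 3 and 4, still differed far beyond sampling noise, with a chi-square of 12.8 per degree of freedom. Libraries 10 and 11 followed at 15.1 and libraries 14 and 15 at 15.8, ahead of 47.3 for libraries 1 and 2. None was therefore treated as the same library sequenced again. These values cannot show whether 2 libraries came from the same tumour or animal.

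**Figure D1:**
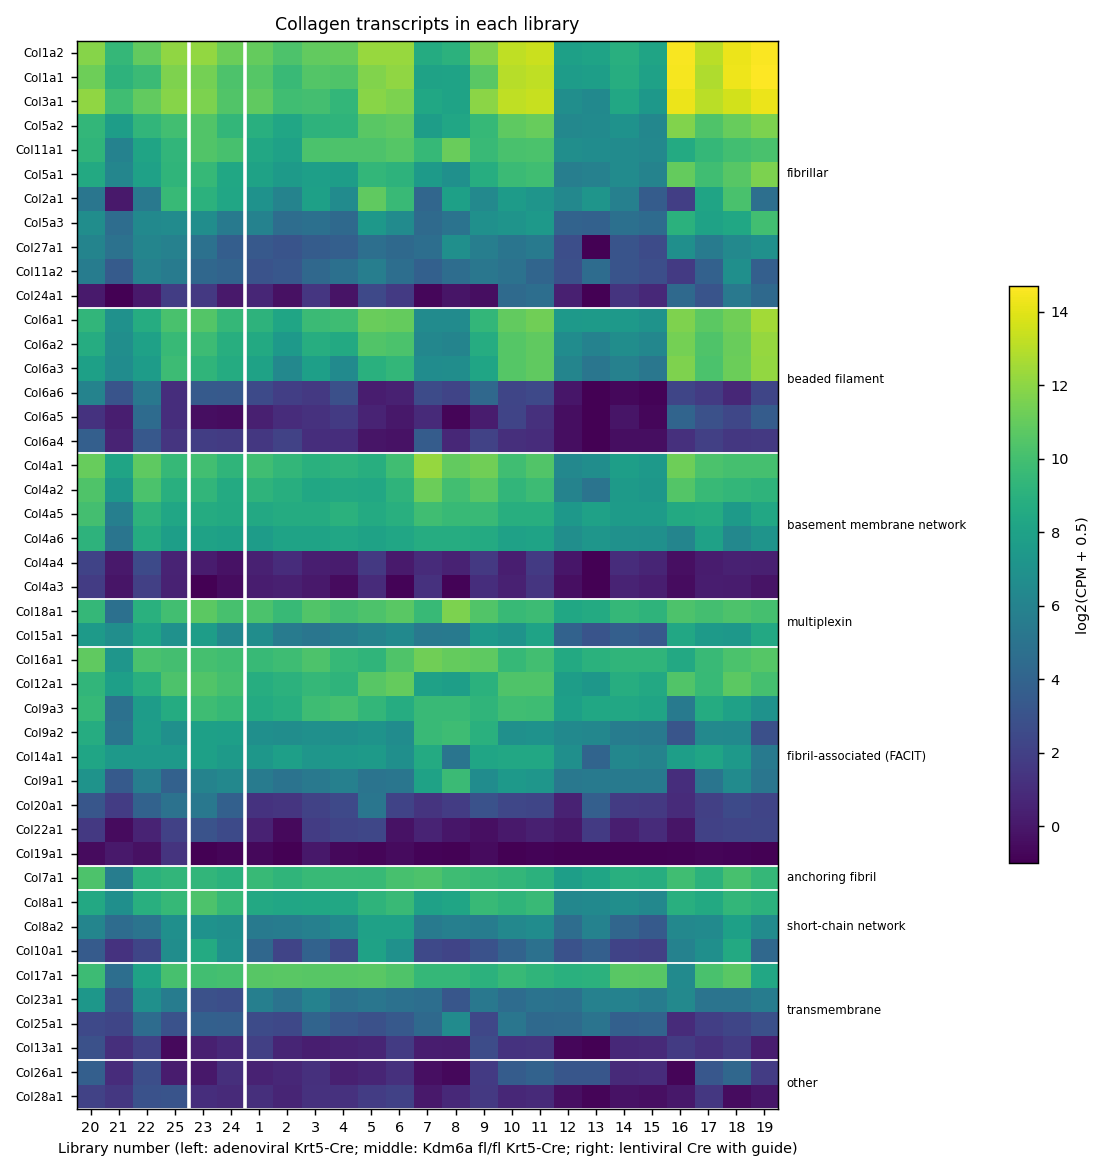
Level of each of the 44 collagen genes, as log2(CPM + 0.5), in each library. Genes run down the page by class. The 4 adenoviral Krt5-Cre libraries stand left, the 2 Kdm6a fl/fl libraries in the middle and the 19 lentiviral libraries right. Fibrillar genes are brightest in libraries 16, 18 and 19, and most genes are dark in libraries 21, 12 and 13.

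The type I and type III genes were the most abundant collagen transcripts per unit of length. On the scale of TPM (the counterpart of CPM that also divides by gene length, from GENCODE M21 exons), Col1a1 averaged 2644 over all 25 libraries, Col3a1 1633 and Col1a2 1567. Col6a1 followed with 994 TPM, ahead of Col17a1 with 562, Col4a1 with 548, Col16a1 with 540 and Col18a1 with 518 TPM. Neighbours in this order did not separate, since the SD over the lentiviral libraries was 322 TPM for Col17a1, 553 for Col4a1 and 325 for Col16a1. By median over the lentiviral libraries, Col1a1 led with 773 TPM, but Col6a1 with 679 TPM and Col17a1 with 670 TPM came ahead of Col3a1 with 645 TPM and Col1a2 with 568 TPM. The means of the fibrillar genes were thus carried by a few libraries. Of the 44 members, 32 had a mean of at least 10 CPM, and 2 had a mean under 1 CPM.

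Collagen genes together took 2.66, 0.454, 1.57 and 2.61% of all counts in the adenoviral libraries 20, 21, 22 and 25. The Kdm6a fl/fl libraries 23 and 24 had 2.94 and 1.77%. Across the lentiviral libraries the share was lowest at 0.397% in library 12, with a median of 1.91% and a maximum of 10.2% in library 19. All adenoviral shares fell inside the lentiviral range, with library 21 near its lower end. The fibrillar class alone took 0.265 to 1.45% in the 4 adenoviral libraries and 0.0907 to 7.87% in the lentiviral ones, with medians of 0.927% in adenoviral and 0.678% in lentiviral libraries.

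**Figure D2:**
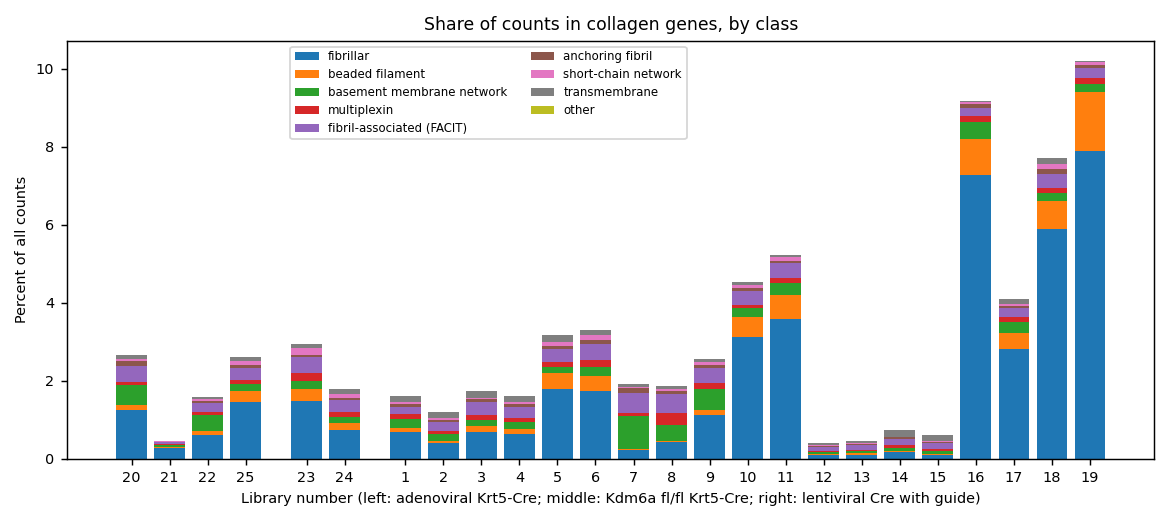
Percent of all counts in collagen genes per library, stacked by class. The bars of the 4 adenoviral libraries stand left, those of the 2 Kdm6a fl/fl libraries in the middle and those of the 19 lentiviral libraries right. The fibrillar class makes up most of the tall bars of libraries 16, 18 and 19, while library 7 has its largest part in the basement membrane class.

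Among the fibrillar genes, Col1a1 (chr11:94936224-94953042, plus strand, GRCm38) and Col1a2 (chr6:4504814-4541544, plus strand) encode the chains of type I collagen, the main protein of connective tissue fibres. Col1a1 had 2411, 574, 818 and 3283 CPM in the adenoviral libraries 20, 21, 22 and 25 and 2777 and 1293 CPM in the Kdm6a fl/fl libraries 23 and 24. In the lentiviral libraries it ran between 206 CPM in library 12 and 26655 CPM in library 19, with a median of 1509 CPM. Col1a1 was the most abundant of all genes in libraries 18 and 19 and ranked 858th in library 12. Without libraries 12 and 13, the lentiviral minimum was 248 CPM, in library 15, and the highest library was still 107 times the lowest. The SD of Col1a1 on the log2(CPM + 0.5) scale over the lentiviral libraries was 2.42, above that of 99.3% of the 10071 genes that averaged 10 CPM or more there. The median SD was 1.55 for the 32 members at that level and 0.39 for all these genes.

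Col1a2 had 3745, 703, 1921 and 4286 CPM in the 4 adenoviral libraries, 4625 and 2287 CPM in the Kdm6a fl/fl libraries, and 244 to 24511 CPM in the lentiviral ones, with a median of 2018 CPM. It was the most abundant gene in libraries 16 and 17. Col1a1 and Col1a2 varied together over the 19 lentiviral libraries, with a Pearson r of 0.993 and a Spearman rho of 0.995 on the log2(CPM + 0.5) scale. The permutation p was 1e-05, the smallest that 100000 resamples can give, and its Benjamini-Hochberg value over the 5 pairs examined was 2.5e-05. Leaving out libraries 19 and 16, which lay farthest from the median, r was 0.991. The resamples treat the 19 libraries as independent, although they hold 7 guide groups with repeated tumours. The permutation p-values here and below may therefore be too small. The ratio of Col1a1 to Col1a2 counts was 0.644, 0.817, 0.426 and 0.766 in the adenoviral libraries and reached 1.08 and 1.09 in the lentiviral libraries 18 and 19.

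Col3a1, the chain of type III collagen, which co-assembles with type I in soft tissues, had 4325, 957, 1976 and 3694 CPM in the adenoviral libraries. The Kdm6a fl/fl libraries had 3137 and 1363 CPM, and the lentiviral ones 87.7 to 19673 CPM, with a median of 1888 CPM. In all 4 adenoviral libraries Col3a1 exceeded Col1a1, by 1.13 to 2.42 times in counts, and it did so in 8 of the 19 lentiviral libraries, where the ratio ran between 0.390 and 2.49 with a median of 0.851. Col5a2, whose product helps to start type I fibrils, had 660, 217, 637 and 1003 CPM in the adenoviral libraries, 1389 and 687 CPM in the Kdm6a fl/fl libraries and 75.9 to 3331 CPM in the lentiviral ones, with a median of 602 CPM. Its highest lentiviral library was 16 and its lowest was 15. Col11a1, a fibril-nucleating chain best known from cartilage, did not follow the type I genes to their peak. It had 631, 62.9, 287 and 657 CPM in the adenoviral libraries, 1375 and 1099 CPM in the Kdm6a fl/fl libraries and 78.8 to 2210 CPM in the lentiviral ones, with its maximum in library 8, where Col1a1 was at 274 CPM.

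Col1a1 also went with Dcn, which encodes decorin, a proteoglycan of fibroblasts, but less tightly. Over the 19 lentiviral libraries r was 0.595 and rho was 0.637 (permutation p = 0.00693, adjusted over the 5 pairs p = 0.00866). Without libraries 19 and 16 r was 0.627. Within the 13 shallower lentiviral libraries r was 0.567, with an adjusted permutation p of 0.0551, and within the 6 deeper ones it was 0.679, with an exact adjusted permutation p of 0.167. The relation therefore missed the threshold of 0.05 within either depth set. The sum over 12 fibroblast markers, none a collagen and 1 of them (Mmp2) also counted below among the collagen-cutting enzymes, was 5487, 819, 3560 and 7106 CPM in the adenoviral libraries and 1040 to 16395 CPM in the lentiviral ones. It was highest in library 5. Of the 3 libraries with the most type I collagen, library 16 had nearly as much, 16243 CPM, while libraries 18 and 19 had 9264 and 9731 CPM. Postn had the highest mean of the 12 markers, 5173 CPM over the lentiviral and 2217 CPM over the 4 adenoviral libraries. Dcn followed with 1172 and 914 CPM, so the sum largely reflects Postn. Libraries 18 and 19 also had the highest sums of 4 adipocyte markers, 512 and 400 CPM, against a lentiviral median of 6.45 CPM. That sum was mainly 1 gene, Fabp4, which averaged 58.7 CPM over the lentiviral libraries, against 0.325 CPM for Lep. Only these 2 of the 4 adipocyte markers passed the filter on low counts. The part of these cell types in the collagen levels was not tested.

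The genes whose levels ranked most like Col1a1 over the 19 lentiviral libraries, among 10167 genes averaging 10 CPM or more, were Pcolce and Pdgfrb, each with a Spearman rho of 0.968. They were followed by Adamts2 at 0.961, Ppic at 0.960 and Nid2 at 0.958. Pcolce encodes an enhancer of procollagen processing, Adamts2 an enzyme that trims procollagen, Pdgfrb a growth factor receptor of mesenchymal cells and Nid2 a basement membrane protein.

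**Figure D3:**
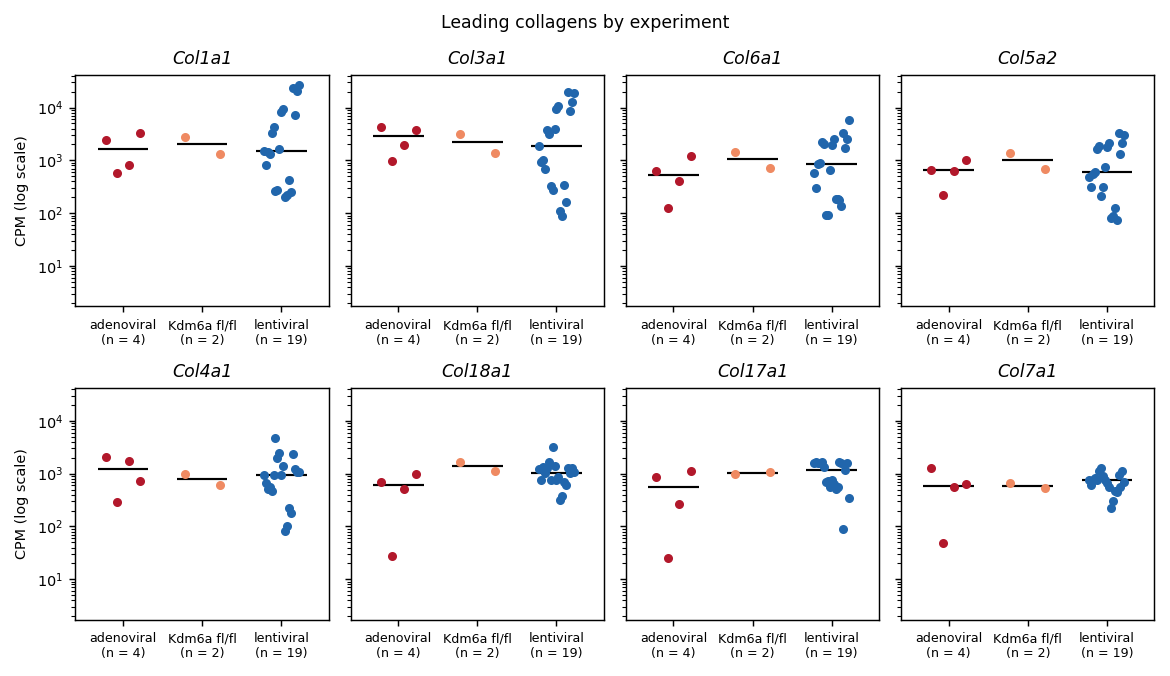
CPM on a log scale of 8 collagen genes in the 4 adenoviral Krt5-Cre, 2 Kdm6a fl/fl and 19 lentiviral libraries. Each point is 1 library and each line the median of its set. The lentiviral points of Col1a1 span 206 to 26655 CPM and those of Col7a1 223 to 1279 CPM, and the lowest adenoviral point is library 21 in all 8 panels.

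The beaded filament genes Col6a1, Col6a2 and Col6a3 encode the usual chains of type VI collagen, which links cells and basement membranes to the interstitial matrix. Col6a1 had 642, 125, 415 and 1190 CPM in the adenoviral libraries, 1449 and 714 CPM in the Kdm6a fl/fl libraries and 93.4 to 5797 CPM in the lentiviral ones, with a median of 848 CPM. Col6a2 had 430, 107, 258 and 777 CPM in the adenoviral libraries, 884 and 453 CPM in the Kdm6a fl/fl libraries and 62.0 to 4806 CPM in the lentiviral ones, with a median of 419 CPM. Col6a3 had 242, 101, 207 and 874 CPM in the adenoviral libraries, 623 and 399 CPM in the Kdm6a fl/fl libraries and 35.1 to 4562 CPM in the lentiviral ones, with a median of 268 CPM. All 3 peaked in library 19, were lowest among adenoviral libraries in library 21 and highest there in library 25.

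The basement membrane genes followed another order of libraries. Col4a1 (chr8:11198423-11312826, minus strand, GRCm38) and Col4a2 (chr8:11312805-11449287, plus strand) encode the chains of the common type IV network. Col4a1 had 2107, 290, 1765 and 735 CPM in the adenoviral libraries 20, 21, 22 and 25, 970 and 607 CPM in the Kdm6a fl/fl libraries and 80.8 to 4808 CPM in the lentiviral ones, with a median of 948 CPM. Col4a2 had 1329, 168, 1214 and 476 CPM in the adenoviral libraries, 638 and 393 CPM in the Kdm6a fl/fl libraries and 32.8 to 2323 CPM in the lentiviral ones, with a median of 599 CPM. Both peaked in library 7, where Col1a1 was at 266 CPM, and both were lowest in libraries 12 and 13.

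Without libraries 12 and 13, the lentiviral range of Col4a1 was 179 to 4808 CPM, a span of 26.8 times. This head-to-head pair, with the overlapping windows shown above, varied together, with r = 0.978 and rho = 0.981 over the 19 lentiviral libraries (permutation p = 1e-05 for each, adjusted 2.5e-05). Without libraries 12 and 13, which lay farthest from the median, r was 0.993. The ratio of Col4a1 to Col4a2 counts was 1.45 to 1.72 in the adenoviral libraries and 1.14 to 3.17 in the lentiviral ones, with the maximum in library 13.

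Col4a1 did not follow the endothelial marker Pecam1 in the same way. Over the 19 lentiviral libraries r was 0.433 and rho was 0.370 (permutation p = 0.0649 and 0.118, adjusted 0.0649 and 0.118), and without libraries 12 and 13 r was 0.107. The sum over 8 endothelial markers was 52.5, 70.9, 418 and 25.5 CPM in the adenoviral libraries. In lentiviral library 7, where Col4a1 peaked, that sum was 36.7 CPM, near the lentiviral minimum of 33.1 CPM. The genes ranked most like Col4a1 were Serpinf1, with a rho of 0.933, and Lamc1, with 0.930, over the 19 lentiviral libraries. Lamc1 encodes the gamma chain of many laminins, the other network of the basement membrane. Dact3 at 0.898 and Pear1 and Dpysl3 at 0.863 came next.

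**Figure D4:**
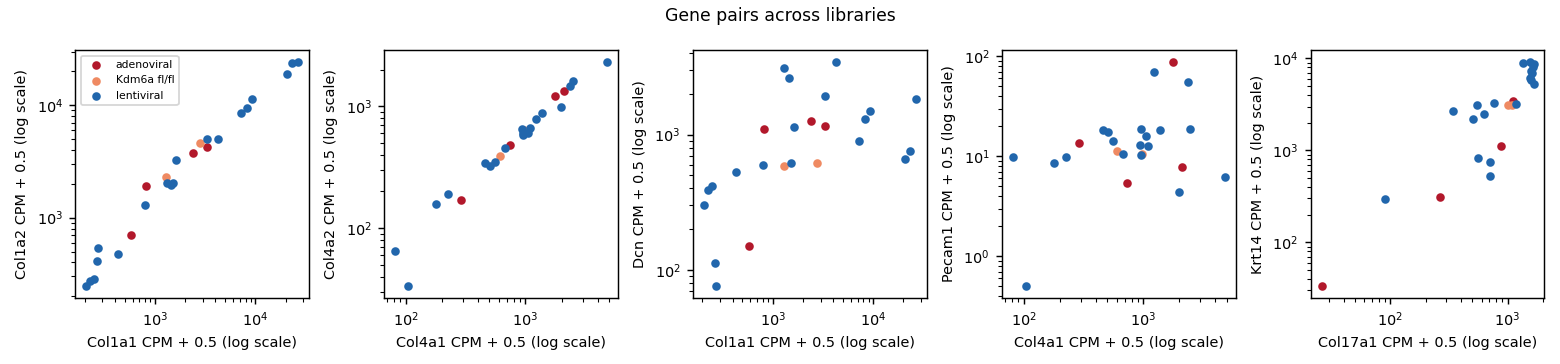
CPM + 0.5 of 5 gene pairs on log axes, 1 point per library, with adenoviral Krt5-Cre libraries in red, Kdm6a fl/fl libraries in orange and lentiviral libraries in blue. The pairs Col1a1 with Col1a2 and Col4a1 with Col4a2 lie on narrow bands (r = 0.993 and 0.978 over the lentiviral libraries), Col17a1 with Krt14 on a broader one (r = 0.813), and Col1a1 with Dcn and Col4a1 with Pecam1 scatter widely.

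Col4a5 and Col4a6, neighbours on the X chromosome that encode chains of a second type IV network, fell outside the rule for named genes and were added after their values were seen. Col4a5 had 1040, 55.0, 571 and 318 CPM in the adenoviral libraries, 405 and 369 CPM in the Kdm6a fl/fl libraries and 168 to 938 CPM in the lentiviral ones, with a median of 397 CPM. Library 20 lay above and library 21 below the lentiviral range. The ratio of Col4a5 to Col4a6 counts was 1.40 to 2.46 in all libraries but library 16, where it was 5.08. The kidney-type chains Col4a3 and Col4a4 stayed at or under 5.18 CPM in every library.

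Col18a1 encodes the basement membrane collagen from which endostatin is released. It had 698, 27.4, 505 and 994 CPM in the adenoviral libraries, 1699 and 1110 CPM in the Kdm6a fl/fl libraries and 321 to 3146 CPM in the lentiviral ones, with a median of 1041 CPM. Library 21 lay below every lentiviral library. The lentiviral SD was 0.75 on the log2(CPM + 0.5) scale, against 2.42 for Col1a1.

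The anchoring and hemidesmosomal genes ran over narrower ranges than the type I genes across the guide tumours. Col7a1, the gene of the anchoring fibril, had 1264, 49.4, 552 and 635 CPM in the adenoviral libraries, 658 and 527 CPM in the Kdm6a fl/fl libraries and 223 to 1279 CPM in the lentiviral ones, with a median of 759 CPM. Its lentiviral SD of 0.63 on the log2(CPM + 0.5) scale was the lowest of the 32 members averaging 10 CPM or more, and without libraries 12 and 13 its highest library was only 2.90 times its lowest. Col17a1 (chr19:47646344-47692094, minus strand, GRCm38) had 875, 25.5, 263 and 1108 CPM in the adenoviral libraries, 1002 and 1087 CPM in the Kdm6a fl/fl libraries and 89.9 to 1673 CPM in the lentiviral ones, with a median of 1180 CPM. Its lentiviral minimum was in library 16 and its maximum in library 14, and its SD was 1.09, above the 0.75 of Col18a1 and the 0.78 of Col16a1. Library 21 lay below the lentiviral range of both genes. In library 16, Col17a1 was at 0.0949 times the count of Col7a1, while in libraries 14 and 15 it was at 3.52 and 3.54 times.

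Col17a1 followed Krt14, a keratin of basal epithelial cells, over the 19 lentiviral libraries, with r = 0.813 and rho = 0.768 (permutation p = 4e-05 and 0.00024, adjusted 6.67e-05 and 0.0004). Without libraries 16 and 19 r was 0.791. Within the 13 shallower lentiviral libraries r was 0.859, and within the 6 deeper ones it was 0.726, with an exact adjusted permutation p of 0.167. Krt14 had 1112, 32.7, 312 and 3464 CPM in the adenoviral libraries, the same order as Col17a1. In library 16 Krt14 was at 295 CPM and the sum of 5 luminal markers at 267 CPM, both the lowest of the lentiviral libraries, so that library held little epithelial RNA of either kind. Among the genes ranked most like Col17a1 were Sostdc1 with a rho of 0.886, the keratin gene Krt17 with 0.884, and Crim1 and Ywhaq-ps1 with 0.882, over the same 19 libraries. Ywhaq-ps1 is annotated as a pseudogene by its symbol, and its count may hold reads of its parent gene.

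Fibril-associated collagens sit on the surface of fibres and do not form fibres themselves. Col16a1 had 1837, 154, 1195 and 1053 CPM in the adenoviral libraries, 1090 and 958 CPM in the Kdm6a fl/fl libraries and 360 to 2482 CPM in the lentiviral ones, with a median of 801 CPM. It peaked in library 7, as Col4a1 did, and was lowest in library 16, where Col3a1 and Col5a2 peaked. Col12a1 had 655, 230, 470 and 1293 CPM in the adenoviral libraries, 1416 and 1084 CPM in the Kdm6a fl/fl libraries and 160 to 2044 CPM in the lentiviral ones, with a median of 604 CPM and its maximum in library 6.

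Cartilage-type chains were present, and Col2a1, Col9a1, Col9a2, Col9a3 and Col10a1 were added to the named genes after their values were seen. Col2a1, the main cartilage fibril chain, had 34.9, 0.568, 40.2 and 772 CPM in the adenoviral libraries, 547 and 314 CPM in the Kdm6a fl/fl libraries and 3.28 to 1842 CPM in the lentiviral ones, with a median of 126 CPM. It was highest in library 5, and library 16, which had the second most Col1a1, had the least. Col9a3 had 744, 28.5, 203 and 399 CPM in the adenoviral libraries and 44.0 to 1086 CPM in the lentiviral ones. Col9a1 and Col9a2 both peaked in library 8, at 823 and 910 CPM, against lentiviral medians of 41.4 and 103 CPM. Col10a1, the chain of hypertrophic cartilage, had 10.7, 1.99, 4.33 and 103 CPM in the adenoviral libraries, 380 and 123 CPM in the Kdm6a fl/fl libraries and 3.42 to 371 CPM in the lentiviral ones, with a median of 14.9 CPM. It was over 100 CPM in the lentiviral libraries 5, 6, 17 and 18. The sum over 5 chondrocyte markers was 407, 37.4, 309 and 716 CPM in the adenoviral libraries and 138 to 1843 CPM in the lentiviral ones, highest in library 19. Its part in these levels was not tested.

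The remaining members were described by range. Col8a1, Col8a2, Col14a1, Col15a1, Col5a1, Col5a3, Col23a1, Col25a1, Col27a1, Col11a2 and Col4a6 had means of at least 10 CPM, with lentiviral medians between 10.0 CPM for Col25a1 and 355 CPM for Col8a1. The other 12 members had means under 10 CPM. Of the 32 members averaging 10 CPM or more, 25 varied by more than 10 times between the lowest and the highest lentiviral library. Library 19 held the lentiviral maximum of 9 of these 32 members, library 7 of 7 and library 8 of 5. The lentiviral minimum lay in library 13 for 9, in library 12 for 8, in library 16 for 8 and in library 15 for 4. Among the adenoviral libraries, library 21 was the lowest for all 32, and the highest was library 25 for 15, library 20 for 13 and library 22 for 4.

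The 4 adenoviral libraries of the larger table were tested against the 19 lentiviral ones. Virus, strain background and guide all differ between these sets, as does depth, and the promoter of Cre may, so their parts cannot be told apart. The labels do not say whether tumours came from separate animals, and the p-values measure the spread between these libraries. In edgeR's quasi-likelihood test, 4057 of 16922 genes had an adjusted p under 0.05, which is 24%. Higher in adenoviral tumours were 14.4% of the genes tested, and lower 9.54%. Of the 43 collagen genes tested, 2 passed, both higher in adenoviral tumours, and 3 had an unadjusted p under 0.05. The share of members called was 4.65%, below the 24% over all genes. Over all 16922 genes, 6078 had an unadjusted edgeR p under 0.05, while DESeq2 called 4919 and limma 3528. Only Col19a1, with a mean of under 1 CPM, was removed by the filter on low counts. The median log2 fold change was -0.07 over the 43 members and 0.06 over all genes tested, and 18 of the 43 members were above 0.

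No member's CPM separated the 4 adenoviral from the 19 lentiviral libraries without overlap, whereas 5.27% of all genes tested did. Of the 32 members averaging 10 CPM or more, 21 had all 4 adenoviral libraries inside the lentiviral range. The share of all genes that did so was not computed, so this count is not read as particular to collagens.

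The 2 genes that passed were both of low level. Col6a6, a less common chain of type VI collagen, had 65.1, 8.10, 37.9 and 1.55 CPM in the adenoviral libraries 20, 21, 22 and 25 and 10.2 and 10.0 CPM in the Kdm6a fl/fl libraries. In the lentiviral libraries it ran to 19.5 CPM, with a median of 3.19 CPM, and had no count in library 13, where 3 counts correspond to 0.235 CPM. Libraries 20 and 22 lay above every lentiviral library, and libraries 21 and 25 inside their range. Its log2 fold change was 2.84 ± 0.83 (SE), with an edgeR adjusted p of 0.0149. Without library 20 the log2 fold change was 1.92, with an edgeR adjusted p of 0.169, so the call rested on that library.

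Col28a1 encodes a collagen described in mouse peripheral nerve. It had 3.70, 2.42, 7.18 and 8.09 CPM in the adenoviral libraries, 1.55 and 1.30 CPM in the Kdm6a fl/fl libraries and 0.0784 to 3.68 CPM in the lentiviral ones, with a median of 1.21 CPM. Libraries 20, 22 and 25 lay above every lentiviral library. The log2 fold change was 1.98 ± 0.59 (SE), with an edgeR adjusted p of 0.0161, and the adjusted p was 0.0526 without library 22 and 0.0678 without library 25. The sum over 4 Schwann cell markers was 362, 30.3, 455 and 142 CPM in the adenoviral libraries and 7.63 to 476 CPM in the lentiviral ones, with a median of 127 CPM. The part of such cells in the Col28a1 level was not tested. Of the 8 marker lists for other cell types, 0 genes passed by edgeR, against 24% of all genes tested. There were 6 at an unadjusted p under 0.05, while DESeq2 called Fbln1 and Krt14 and limma Krt14. Near the threshold, Col23a1, a transmembrane collagen, had a log2 fold change of 0.90 ± 0.43 (SE) and an edgeR adjusted p of 0.137, and without library 21 these were 1.27 and 0.0281. It had 157, 7.15, 117 and 47.2 CPM in the adenoviral libraries 20, 21, 22 and 25 and 8.86 to 84.8 CPM in the lentiviral ones. The Kdm6a fl/fl libraries 23 and 24, also made with Krt5-Cre, had 6.85 and 6.39 CPM, below every lentiviral library.

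None of the 11 fibrillar genes passed by edgeR or limma or had an unadjusted p under 0.05, while edgeR called 24% of all genes tested. DESeq2 called 1 of the 11, Col24a1, as lower (DESeq2 adjusted p = 0.0487), and 4919 of all 16922 genes. The median edgeR log2 fold change of the 11 fibrillar genes was -1.07, with 2 of them above 0. Col1a1 had a log2 fold change of -1.82 ± 1.31 (SE), with an edgeR adjusted p of 0.332, from adenoviral and lentiviral means of 1771 ± 1296 and 5841 ± 8379 CPM (SD, n = 4 and 19). For Col18a1 it was -1.09 ± 0.54 and for Col17a1 -0.96 ± 0.63, with edgeR adjusted p of 0.151 and 0.283, means of 556 ± 406 and 568 ± 508 CPM in adenoviral libraries and means of 1105 ± 610 and 1067 ± 544 CPM in lentiviral libraries. Col4a1 had a log2 fold change of -0.01 ± 0.71 (SE), with an edgeR adjusted p of 0.995. On simulated counts, drawn with 1 common spread for all genes, the test called 89 of 98 genes with a true log2 fold change of 3. It called 1 of 98 with one of 1. The simulation left out the wider spread of genes such as Col1a1, so it does not show which differences were detectable in fibrillar genes. By median, Col1a1 was higher in adenoviral libraries, at 1614 CPM against 1509 CPM in lentiviral ones. Its limma log2 fold change was -0.42, with a limma adjusted p of 0.845. The share of counts in the fibrillar class also had the higher median in adenoviral libraries, 0.927% against 0.678%.

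**Figure D5:**
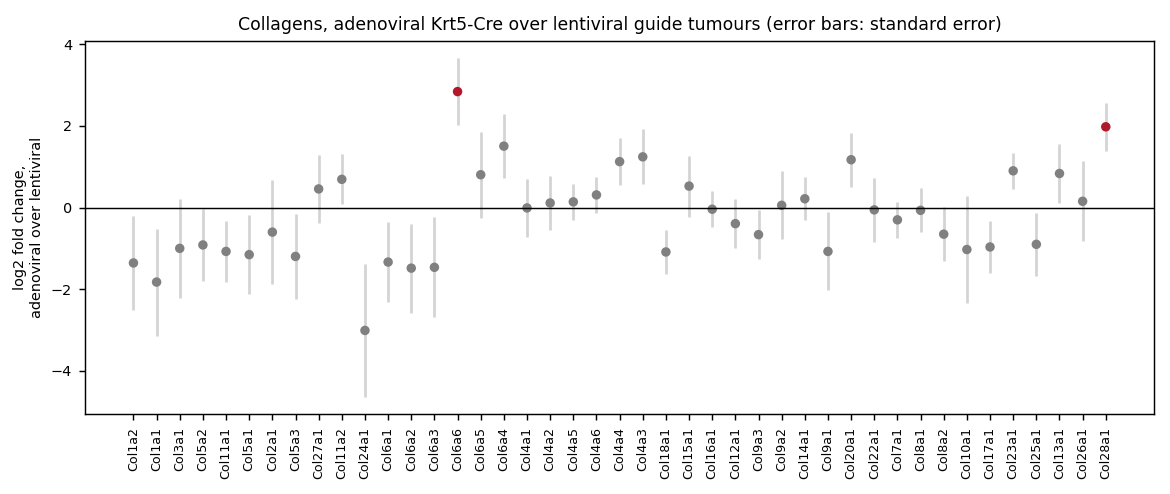
Log2 fold change, adenoviral Krt5-Cre over lentiviral guide tumours, with its standard error, for the 43 collagen genes tested, ordered by class as in the heat map. Red points are the 2 genes with an edgeR adjusted p under 0.05, Col6a6 at 2.84 and Col28a1 at 1.98, and grey points the other 41.

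Genes that make, bind or cut collagen were counted in the same comparison. Of 28 genes of collagen biosynthesis and crosslinking, 2 fell in adenoviral tumours and none rose by edgeR, which is 7.14%, against 24% called and 9.54% lower over all genes. The median log2 fold change was -0.67, against 0.06 over all genes tested. The 2 genes that fell encode proteins of the endoplasmic reticulum. P4hb, the shared subunit of prolyl 4-hydroxylase, had a log2 fold change of -0.80 ± 0.26 (SE) and an edgeR adjusted p of 0.0263, with 740, 708, 683 and 833 CPM in the adenoviral libraries and 622 to 2375 CPM in the lentiviral ones. Ppib, a prolyl isomerase that aids folding of the triple helix, had 56.0, 47.7, 70.7 and 72.1 CPM in the adenoviral libraries and 86.0 to 166 CPM in the lentiviral ones, with no overlap. Its log2 fold change was -0.91 ± 0.17 (SE), with an edgeR adjusted p of 0.00045. The Kdm6a fl/fl libraries 23 and 24, also made with Krt5-Cre, had 160 and 144 CPM of Ppib and 1160 and 1040 CPM of P4hb. Serpinh1, the collagen chaperone, had 903, 101, 619 and 587 CPM in the adenoviral libraries and 232 to 2785 CPM in the lentiviral ones, and Lox, a crosslinking enzyme, 63.3 to 130 CPM in the adenoviral libraries and 19.0 to 896 CPM in the lentiviral ones. Neither passed the test. DESeq2 and limma each called 5 of the 28, with P3h4 and P4ha2 beside P4hb and Ppib in both. The fifth was Colgalt1 in limma and Mia3 in DESeq2, and Mia3 was higher in adenoviral tumours, with an edgeR log2 fold change of 0.58 and an adjusted p of 0.0627.

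Of 10 collagen receptor genes, 9 were tested and 0 passed by edgeR or limma, while edgeR called 24% of all genes tested. There were 2 at an unadjusted p under 0.05, and DESeq2 called Itga11. Of 6 collagen-cutting enzyme genes, 0 passed by edgeR or limma, against the same 24% of all genes by edgeR, and 1 had an unadjusted p under 0.05. DESeq2 called Ctsk and Mmp8, and 4919 of all 16922 genes tested. Of 8 hemidesmosome partners of collagen XVII, 1 rose in adenoviral tumours, which is 12.5%, against 14.4% higher and 24% called over all genes. It was Dst, which encodes a cytoskeletal linker, with a log2 fold change of 0.75 ± 0.21 (SE) and an edgeR adjusted p of 0.0111. The other 7 partners, among them Itgb4 and Itga6, had log2 fold changes under 0 and did not pass by edgeR.

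The Kdm6a fl/fl libraries 23 and 24 are given without a comparison. Of the 32 members averaging 10 CPM or more, 30 were higher in library 23, with Col1a1, Col3a1 and Col10a1 among those more than 2 times as high there. The share of all genes higher in library 23 was not computed, so this count is not read as particular to collagens. Libraries 23 and 24 have no matched wildtype set here. The wildtype tumours among libraries 20, 21, 22 and 25 were not identified, so no Kdm6a comparison was made.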

How the data were processed

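RNA was measured by sequencing in 25 libraries of GFP-positive, DAPI-negative cells sorted from mouse mammary tumours. The authors deposited raw counts per gene symbol, without normalization, in 2 tables. Per the submitters' processing notes, the tools were HISAT2 2.1.0, featureCounts and DESeq2, and the build was mm10, also named GRCm38. Which annotation was counted, whether by strand, and how shared reads were treated is not given here in the sources used, so counts of overlapping or near-identical genes are uncertain. Every sample column was used, and the smaller table's 2234 extra rows entered only its library totals.

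CPM was computed from library totals, and TPM from GENCODE M21 exon unions, which include rarely used exons. The test was edgeR 4.0.16 (quasi-likelihood, TMM, filterByExpr) over the whole larger table, with Benjamini-Hochberg adjustment over all genes tested and a threshold of 0.05. The step was tested on simulated data. Correlations used log2(CPM + 0.5) with 100000 resamples, and exact enumeration for 6 libraries. Alternatives used DESeq2 1.42.0 and limma 3.58.1. R was 4.3.3. Named genes were all members called plus the 15 with the highest mean CPM. For each of Col1a1, Col4a1 and Col17a1, the 5 other genes with the highest Spearman rho were chosen, and 1 of them is not reported here. The members and lists were chosen with earlier results of these data known. Libraries 12, 13 and 21 and the 13 shallower and 6 deeper lentiviral libraries were set apart after the values were seen. Totals of 7733478 to 43673097 counts limit the precision of the lowest genes.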

Additional observations from a re-analysis of the deposited data

How the results depend on the processing

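No paired analysis was possible because the count columns carry no replicate number. The number of collagen genes called was 2 to 3 under every alternative tried other than leaving out 1 adenoviral library, which gave 1 to 3. Beside Col6a6 and Col28a1, other calls were Col24a1, which was lower, in DESeq2, Col19a1 without the filter or without library 22, Col20a1 with libraries 23 and 24 added, and Col23a1 without libraries 12, 13 and 21 or without library 21 alone. Over all genes, DESeq2 called 4919 and the fit without the filter 5695. The edgeR, DESeq2 or limma adjusted p ranged between 0.00798 and 0.169 for Col6a6 and between 0.0056 and 0.0678 for Col28a1.

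Signs turned only for named genes that never passed. Col3a1 was at 0.52 in limma. Col4a1 was at 0.046 with DESeq2 size factors and in DESeq2, 0.36 in limma, 0.13 without libraries 12, 13 and 21, and 0.0052 without the 6 deepest libraries. Col16a1 was at 0.0064 with DESeq2 size factors and in DESeq2, 0.21 without libraries 12, 13 and 21, and 0.14 without the 6 deepest libraries. With libraries 23 and 24 added, Col12a1 was at 0.023 and Col4a2 at -0.023. Leaving out 1 adenoviral library gave -0.47 to 0.28 for Col4a1, -0.51 to 0.30 for Col16a1, -0.97 to 0.072 for Col7a1 and -0.32 to 0.41 for Col4a2. All these are log2 fold changes, and the cause was not tested.

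The correlation of Col1a1 with Dcn was 0.567 in the 13 shallower and 0.679 in the 6 deeper lentiviral libraries, and that of Col17a1 with Krt14 was 0.726 in the 6 deeper ones, none past the threshold. TMM-scaled CPM moved no named level by as much as 1 SD.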
